A study of Danio rerio with 24 samples.

Results

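The libraries described here come from whole zebrafish larvae at 5 days post-fertilization (dpf) that had been exposed as embryos to 0.3 nM PCB126, together with larvae of the same age that had received the solvent DMSO. They were chosen by their labelled age and agent and make up 6 of the 24 libraries of the series, 3 for 0.3 nM and 3 for DMSO. The series calls the 3 libraries of a group biological replicates, so p-values measure the spread between samples of a group. In the edgeR test of larvae that spread was estimated over 9 libraries together, those at 1.2 nM included. How many larvae went into a library, the strain and the length of the exposure were not stated in the labels. The other groups that serve as comparisons have 3 libraries each. They are larvae at 5 dpf exposed to 1.2 nM, and whole embryos at 48 hours post-fertilization (hpf) given DMSO or 0.3 nM. The rest of the series is adult brain at 4 months (DMSO, 0.3 and 1.2 nM), which enters only the fit of the difference between ages. All embryos, controls included, were kept in a dilute salt medium and later moved to clean system water. RNA of whole animals was depleted of ribosomal RNA and sequenced in stranded single-end reads of 50 bases.

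PCB126 is a polychlorinated biphenyl of flat shape that binds the aryl hydrocarbon receptor (AHR), as dioxin does. The bound receptor leaves its chaperones, enters the nucleus, pairs with ARNT and switches on genes for cytochrome P450 enzymes of family 1, among others, and for its own repressors. In zebrafish, ahr2 is known to carry most of the response to dioxin-like compounds, and heart, jaw and swim bladder are the organs known to be harmed by high doses. CYP1A1 is the symbol the names table gives to zebrafish cyp1a, the most commonly used sign of AHR activity; symbols in capitals below are likewise those of the mammalian ortholog.

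The libraries held 15564323 to 18668231 reads on genes at 0.3 nM and 12480715 to 14932821 for DMSO, so that the totals of the groups did not overlap. Larvae at 1.2 nM had 16831991 to 20662041. The labelled age was checked on organ genes: 27 exocrine pancreas genes summed to 10820 to 12850 CPM, the read count scaled to a common library size, in DMSO larvae and 17 to 22.1 in DMSO embryos, and 59 photoreceptor genes to 6713 to 7127 against 612.8 to 673.0 CPM. The liver list was not higher in larvae, at 17060 to 18810 against 22610 to 30640 CPM. Correlations of log2 CPM between 0.3 nM and DMSO libraries ran from 0.987 to 0.991, and those inside the DMSO group from 0.987 to 0.991. Inside the 0.3 nM group they ran from 0.9893 to 0.9915. Medians were 0.9888 between these groups, 0.9883 inside DMSO and 0.9912 inside 0.3 nM. In whole animals, fewer cells of a type and less RNA per cell cannot be told apart.

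No gene passed the test between 0.3 nM and DMSO larvae. The edgeR quasi-likelihood test called 0 of 21719 genes (0%) at an adjusted p under 0.05, and the smallest adjusted p was 0.477. At an unadjusted p under 0.05 there were 483 genes higher (2.22%) and 551 lower (2.54%). DESeq2 called 2 genes, zgc:158463 and ENSDARG00000081115, and edgeR called 2, zgc:158463 among them, without DMSO replicate 3. The middle 95% of log2 fold changes ran from -0.39 to 0.41. The groups of 3 libraries did not overlap for 1183 genes that were higher at 0.3 nM (5.45%) and 1197 that were lower (5.51%).

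A p above the threshold does not show that a gene was the same in both groups, so the 95% interval of each log2 fold change was read as well. It lay inside a 2-fold change in both directions for 20204 genes (93.0%) and inside 1.5-fold for 17036 (78.4%). Precision depended on the level: the median half-width of the interval was 0.153 on the log2 scale for the 2453 genes over a mean log2 CPM of 6, and 0.867 for the 1108 genes under 0. In 93 genes the estimate itself was at or beyond 2-fold, CYP1A1 among them.

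**Figure D1:**
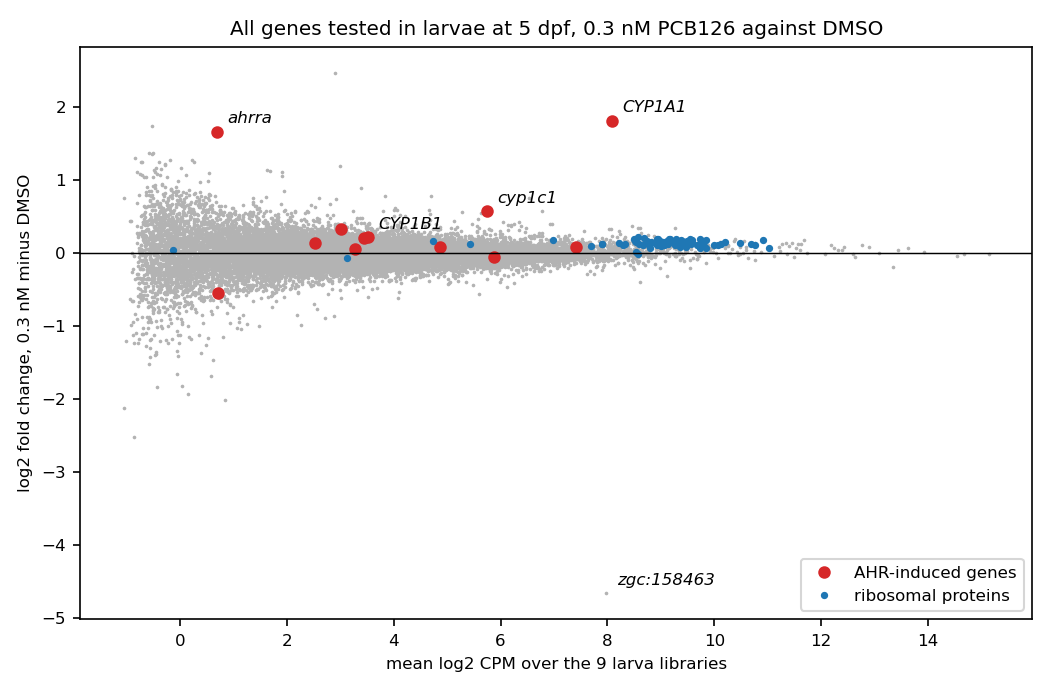
Log2 fold change of 0.3 nM against DMSO larvae for the 21719 genes tested, against mean log2 CPM over the 9 larva libraries. Red points are the 12 AHR-induced genes and blue points the 82 ribosomal protein genes; CYP1A1 lies at 1.82 and zgc:158463 at -4.66, and neither passed the test.

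CYP1A1 (ENSDARG00000098315), which oxidizes planar aromatic compounds, was at 75.3, 162.3 and 67.0 CPM in the 0.3 nM libraries and at 29.1, 27.1 and 30.0 in DMSO. All exposed libraries were above all controls, and exposed replicate 2 stood farthest from them. The log2 fold change was 1.82 (SE 0.51, 95% interval 0.58 to 3.06, n = 3 each), a fold of 3.52 with an interval from 1.49 to 8.34, with an adjusted p of 0.995 by the edgeR quasi-likelihood test over all genes. The unadjusted p of that edgeR test was 0.0113. The difference in mean CPM was 72.8, and the exact two-sided permutation test gave p = 0.1, the smallest that 3 against 3 allows. Without exposed replicate 2 the difference was 42.5 CPM and the log2 fold change 1.31.

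The other enzymes of the family lay closer to the controls. For cyp1c1 (ENSDARG00000101195), a fish CYP1 enzyme of less defined substrates, the exposed libraries had 26.7, 37.2 and 25 CPM and the controls 19, 19.8 and 20.5. Again no exposed library reached down to the controls, and replicate 2 was the highest; the log2 fold change was 0.58 (SE 0.36, interval -0.28 to 1.44, edgeR adjusted p = 0.997). CYP1B1, which acts on steroids and retinoids as well as on pollutants, stood at 5.99, 7.79 and 6.51 against 5.63, 6.04 and 5.64 CPM. These groups overlapped by 1 library, and the interval of the log2 fold change of 0.22 ran from -0.82 to 1.27. For cyp1c2, the close paralog of cyp1c1, values of 3.29, 3.76 and 3.50 against 2.61, 3.39 and 3.65 CPM overlapped in part (0.13, interval -0.39 to 0.66). Of the 4 enzymes, cyp1c2 had an interval that stayed inside 2-fold; those of the other 3 did not.

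**Figure D2:**
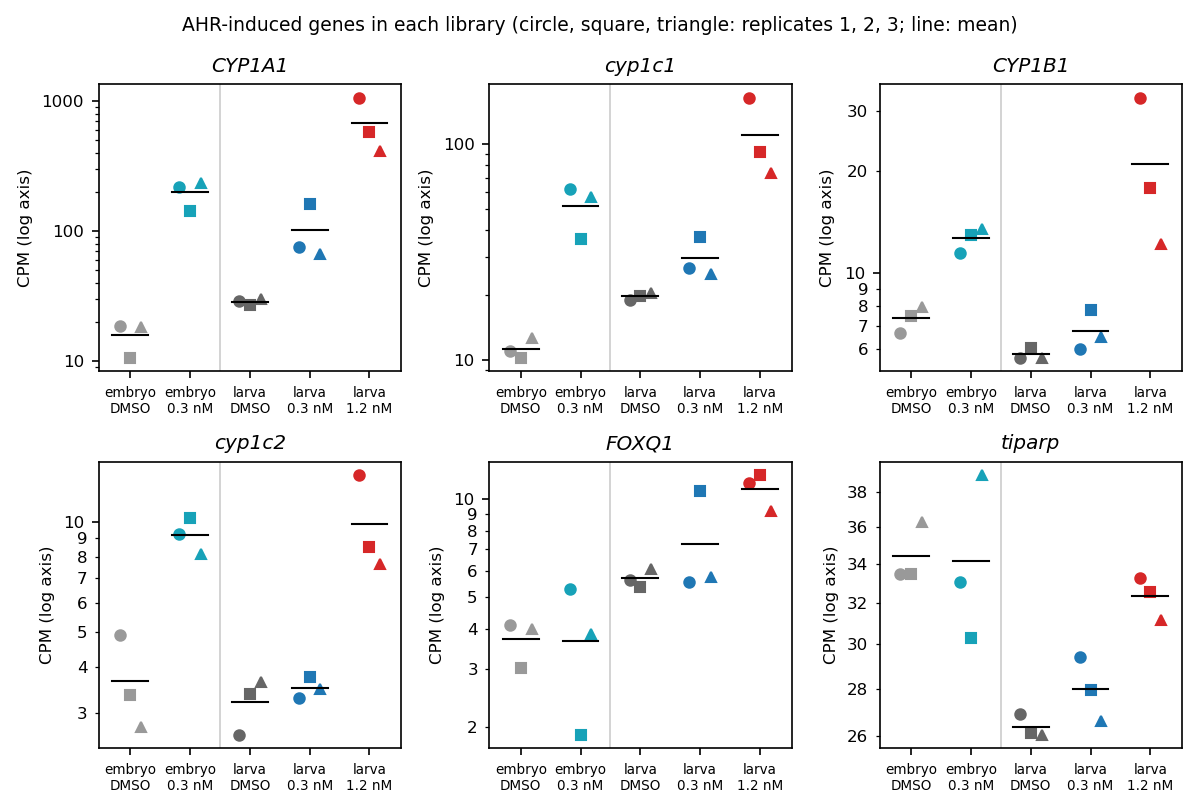
CPM of 6 AHR-induced genes in each library on a log axis, for embryos at 48 hpf (left of the line) and larvae at 5 dpf; symbols are replicates and bars are means of 3. For CYP1A1 the 0.3 nM larvae, at 67.0 to 162.3 CPM, lie above the DMSO larvae and below the 1.2 nM larvae, at 410.7 to 1067.

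The repressor genes of the pathway had few reads. For ahrra, from a pair of zebrafish AHR repressors, 14, 28 and 7 reads were found at 0.3 nM and 2, 3 and 7 in DMSO. In CPM the highest control, 0.56, was above the lowest exposed library, 0.38, and the log2 fold change of 1.66 had an interval from -0.84 to 4.16. Its partner ahrrb had 22, 23 and 10 reads against 15, 23 and 25, with a log2 fold change of -0.55 (interval -1.34 to 0.25). The gene tiparp, for an ADP-ribosyltransferase that marks the AHR for breakdown, was at 29.4, 28.0 and 26.6 against 26.9, 26.1 and 26.0 CPM. It overlapped by 1 exposed library, and its log2 fold change of 0.09 was bounded by -0.07 and 0.24.

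FOXQ1, a forkhead factor induced by dioxin in zebrafish, showed a single high library. Exposed replicate 2 had 10.6 CPM, while replicates 1 and 3 had 5.56 and 5.76, inside the DMSO range of 5.38 to 6.11. Its log2 fold change was 0.34 (interval -0.17 to 0.84) and became -0.01 without that library. The paralog foxq1b was at 9.66, 11.4 and 10.4 against 10.1, 8.32 and 8.81 CPM (0.20, interval -0.09 to 0.49), with overlap. The enzymes of the second line of detoxification were close to the controls: NQO1, a quinone reductase, at a log2 fold change of -0.05 (interval -0.20 to 0.10), and the glutathione transferases gstp1.1 at 0.06 (-0.25 to 0.38) and gstp1.2 at 0.08 (-0.10 to 0.26). The muscle growth factor antagonist gene wfikkn1 had at most 1 read in any of these 6 libraries and was not tested.

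As a list, 12 of 13 AHR-induced genes could be tested; none was called, 10 lay above 0 (83.3%, against 50% of all genes) and the median log2 fold change was 0.17, against 0.00 for all genes tested. CYP1A1 and cyp1c1 were the 2 of 12 members whose groups did not overlap, both higher, where 5.45% of all genes were. Summed over the list, the exposed libraries had 397.0, 495.4 and 390.5 CPM and the controls 318.3, 337.5 and 337.1, with CYP1A1 the main source of the gap. Exposed replicate 2 was the highest of its group in 9 of the 12 genes (75%), where it was the highest in 35% of all genes. Without it the median of the list was 0.10. The intervals of 7 of the 12 stayed inside 2-fold.

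**Figure D3:**
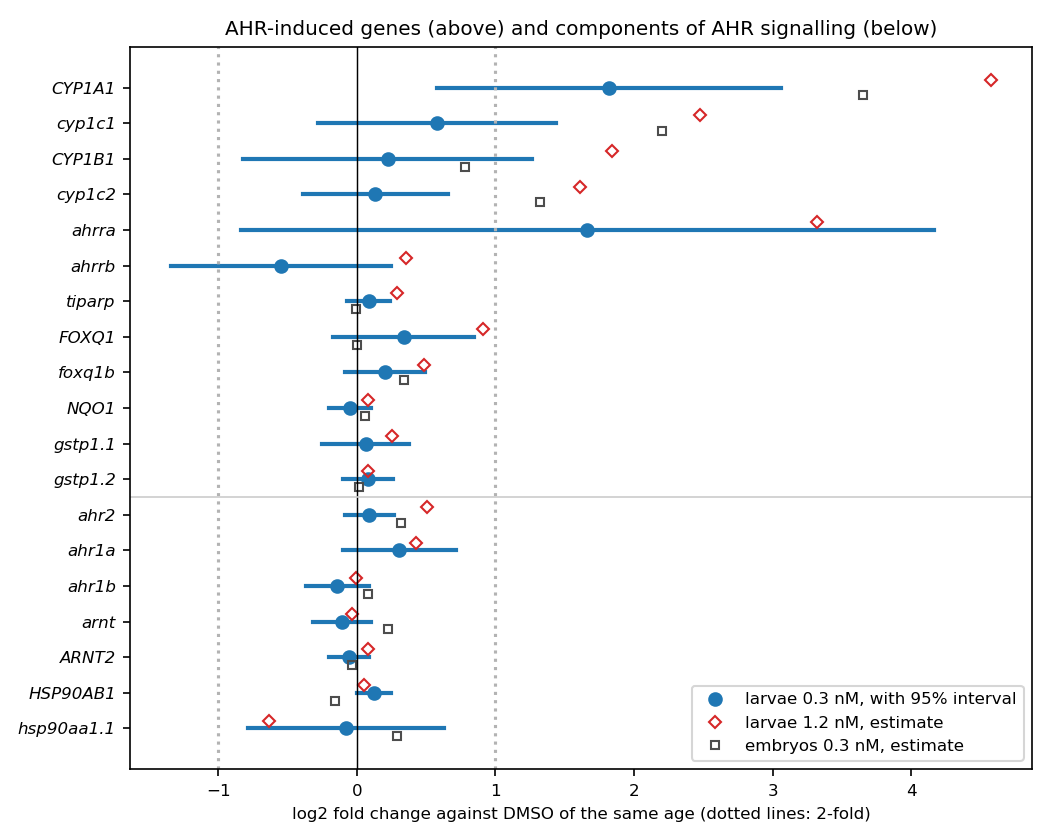
Log2 fold change and 95% interval at 0.3 nM in larvae (blue), with the estimates at 1.2 nM in larvae (red diamonds) and at 0.3 nM in embryos (open squares, where tested), for the 12 AHR-induced genes and 7 of the 12 components of AHR signalling. Of the blue intervals of AHR-induced genes, that of CYP1A1 (0.58 to 3.06) lies wholly above 0.

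Of the receptor and its partners, none was called (0 of 12). The receptor gene ahr2 was at 130.1, 152.1 and 133.7 against 119.1, 131.5 and 140.2 CPM, with overlap, and its log2 fold change of 0.09 (interval -0.09 to 0.27) stayed inside a 1.5-fold change. The second receptor ahr1b, bound by dioxin in cell assays, was at -0.14 (-0.37 to 0.09), and ahr1a, another form of the receptor, at 0.31 (-0.10 to 0.72). The dimer partners were at -0.11 for arnt (-0.32 to 0.10) and -0.06 for ARNT2 (-0.20 to 0.09). Among the chaperone and transport genes described here, HSP90AB1 and XPO1 had groups that did not overlap, each higher at 0.3 nM. HSP90AB1 holds the receptor in the cytosol, and XPO1 is the nuclear export receptor. Of the 12 components, 3 were higher and 0 lower without overlap, where 5.45% and 5.51% of all genes were.

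For HSP90AB1 the exposed libraries had 3410, 3352 and 3171 CPM and the controls 3120, 2962 and 3026. The gap between the groups was small, and the log2 fold change was 0.13 (SE 0.06, interval 0.00 to 0.25). XPO1 had 125.5, 126.2 and 123.6 against 123.1, 110.8 and 112.6 CPM (0.11, interval -0.02 to 0.25), with the highest control just under the lowest exposed library. Groups overlapped for hsp90aa1.1 (-0.08, interval -0.78 to 0.63) and xpo1a (0.05). They overlapped as well for both genes named PTGES3, which encode the p23 co-chaperone, at -0.06 each, with intervals of -0.30 to 0.17 (ENSDARG00000037284) and -0.53 to 0.41 (ENSDARG00000089626). Intervals of all 12 components lay inside 2-fold, and their median log2 fold change was 0.00. Their summed CPM did not overlap, at 4159, 4078 and 3939 against 3709 to 3855 in the controls, and HSP90AB1 made up most of it.

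The dose itself was compared next, since 1.2 nM larvae were collected at the same age. In the edgeR quasi-likelihood test of 1.2 against 0.3 nM, 5 of 21719 genes were called (0.023%), and 993 had an unadjusted p under 0.05. The AHR target cyp1c2 was higher at the higher dose, at 13.4, 8.53 and 7.65 CPM against 3.29, 3.76 and 3.50 (log2 difference 1.48, SE 0.20, adjusted p = 0.0247). CYP1A1, at 1067, 578.4 and 410.7 CPM for 1.2 nM, was above every 0.3 nM library too, with a log2 difference of 2.76 (interval 1.56 to 3.96), but its adjusted p was 0.669. The same was seen for cyp1c1 (1.90, interval 1.11 to 2.69, adjusted p = 0.641) and CYP1B1 (1.62, adjusted p = 0.975), neither of which passed. These outcomes depended on the method. DESeq2 called CYP1A1 (adjusted p = 7.53e-05), cyp1c1 (4.68e-05) and CYP1B1 (0.0209) between the doses. Without 1.2 nM replicate 1, edgeR called cyp1c1 (adjusted p = 0.0252) and CYP1B1 (0.0320), and without 1.2 nM replicate 3 it called CYP1B1 (0.0463).

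The other genes that edgeR called between the doses in the fit of 9 libraries were not AHR targets on the list. For most of them the 0.3 nM larvae stood near DMSO. The orphan nuclear receptor gene rorcb had 32.7, 29.7 and 28.7 CPM at 0.3 nM, 31.4, 31.2 and 37.2 in DMSO and 48.1, 47.8 and 46.5 at 1.2 nM (log2 difference between doses 0.64, adjusted p = 0.0103). Only the 1.2 nM libraries stood apart there. For plvapb, a gene of endothelial pores, the 1.2 nM libraries were the low ones, with 38.2, 36.3 and 35.7 CPM at 0.3 nM, 35.4, 33.5 and 35.3 in DMSO and 22, 25.4 and 25.7 at 1.2 nM (-0.59, adjusted p = 0.0103); the 0.3 nM libraries lay just above DMSO. For ftr69, a TRIM family gene, 0.3 nM was the highest group, at 1.35, 1.62 and 0.70 CPM against 0.60, 0.37 and 0.64 in DMSO and 0.06, 0.21 and 0.05 at 1.2 nM (-3.41, adjusted p = 0.0368). The reads of ftr69 were few, with 25, 25 and 13 at 0.3 nM, 9, 5 and 8 in DMSO and 1, 4 and 1 at 1.2 nM. HSP90AA1, an HSP90 gene that responds to stress, was at 128.8, 102.9 and 121.8 CPM at 0.3 nM, 105.3, 103.5 and 98.5 in DMSO and 81.2, 65.3 and 82.1 at 1.2 nM (-0.63, adjusted p = 0.0368). Its 0.3 nM and DMSO libraries overlapped. The count of 5 was 1, 3 and 2 without 0.3 nM replicates 1, 2 and 3 in turn, 9 without 1.2 nM replicate 3, and 1 when the 6 libraries of these doses were fitted by themselves. The call of cyp1c2 was lost in that fit and without any one of the 0.3 nM libraries, and those of plvapb, ftr69 and HSP90AA1 were lost in that fit and without 0.3 nM replicate 1. Only rorcb was called in that fit, and its call was lost without 0.3 nM replicate 3. Without 1.2 nM replicate 1 the calls of plvapb, ftr69 and HSP90AA1 were lost too, as was that of ftr69 without 0.3 nM replicate 2 or 1.2 nM replicate 3, and that of HSP90AA1 without 0.3 nM replicate 3.

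Against DMSO, 10 genes were called at 1.2 nM (0.046%), and their values at 0.3 nM are given side by side, since the DMSO libraries are shared. None of the 10 passed at 0.3 nM. The forkhead gene foxf2a, expressed in the supporting cells of vessels and gut, was at 10.3, 12.0 and 10.7 CPM against 7.97, 7.51 and 9.29 in DMSO (log2 fold change 0.41, interval 0.14 to 0.68, against 0.87 at 1.2 nM). The cytochrome gene cyp2aa12 was at 14.8, 15.6 and 13.6 against a DMSO mean of 11.6 CPM (SD 1.24, n = 3) (0.33, interval 0.08 to 0.59, against 0.78), and mamdc2b at 3.08, 4.09 and 2.74 against 1.61, 2.14 and 2.46 CPM (0.67, interval 0.19 to 1.16, against 1.33). In these genes all exposed libraries were above the controls, as in 5.45% of all genes (5.51% were lower without overlap). The shared DMSO libraries favour a separation at 0.3 nM on the side of the 1.2 nM call. zgc:173545 (ENSDARG00000092026) was lower without overlap at 0.27, 0.32 and 0.43 against 0.87, 0.81 and 0.71 CPM (-1.21, against -3.07). Values at 0.3 nM were -0.13 for rorcb, 0.09 for ahr2, 0.13 for cyp1c2 and 0.11 for the basic leucine zipper gene nfil3-5. They were 0.08 for plvapb and -0.06 for the scavenger receptor gene mrc1b. For plvapb the 0.3 nM libraries were all above DMSO, opposite to its lower level at 1.2 nM.

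Embryos at 48 hpf given the same 0.3 nM dose served to ask whether the response differed between the 2 collections. Age and the time since exposure began differ together between them and cannot be told apart here. In those embryos 2 of 20265 genes were called (0.00987%), CYP1A1 and cyp1c1. A block on replicate gave 27 (0.133%), with CYP1A1 at a log2 fold change of 3.66 and cyp1c1 at 2.18. The effect in larvae minus the effect in embryos, tested by edgeR in a fit of all 24 libraries, was called for 0 of 22545 genes (0%). The smallest adjusted p was 0.819 and 820 genes had an unadjusted p under 0.05. That fit includes the adult brain libraries in its estimate of spread. With the 15 embryo and larva libraries alone the count was 0 too, the smallest adjusted p was 0.496 and 1081 genes had an unadjusted p under 0.05. With the 12 DMSO and 0.3 nM libraries of these ages it was again 0, with 0.283 and 1031. In the fit of all 24, the difference for CYP1A1 was -1.83 on the log2 scale (interval -2.99 to -0.68). It was -1.62 (-2.60 to -0.64) for cyp1c1 and -1.19 (-1.94 to -0.44) for cyp1c2. All 3 intervals lay below 0, the side of a smaller effect in larvae, and the adjusted p was 1 for each (edgeR). These 3 genes were called in the embryos, cyp1c2 only with the block, and that choice favours a smaller estimate in larvae. CYP1B1 was called with the block too (log2 fold change 0.78 in embryos, edgeR adjusted p = 0.0179), and its difference between ages is not reported here. The level of CYP1A1 in DMSO animals differed as well, at 18.6, 10.6 and 18.3 CPM in embryos and 27.1 to 30.0 in larvae.

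The genes with the smallest p for the difference between ages had opposite signs at the 2 ages or were close to 0 in larvae. GALNT17, a gene of mucin-type glycosylation, had log2 fold changes of -0.19 in larvae and 0.56 in embryos (difference -0.75, interval -1.05 to -0.44, edgeR adjusted p = 0.819). The mitochondrial ATP synthase gene mt-atp8 was at 48.4, 37.6 and 34.2 against 60.9, 55.8 and 61.3 CPM in larvae, without overlap (-0.56), and at 0.38 in embryos (difference -0.95, adjusted p = 0.819). ELMOD2, CDKN1B, PGK2 and xirp1 followed, with differences of -0.53, -0.45, 0.41 and -4.83 and an adjusted p of 1 each. The muscle gene xirp1 had too few embryo reads for a fit of that age alone.

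Genes outside the CYP1 family with the largest changes among those called in embryos with the block are described next. Those named after clones or without a symbol are left out. Also called with the block, with smaller changes, were ugt1b5 (log2 fold change 0.54 in embryos), agt (0.47) and PYGM (-0.44), not described in larvae. The conjugating enzyme gene ugt1b1, at 0.61 with the block in embryos, was at 8.69, 11.6 and 10.9 CPM against 8.31, 9.94 and 10 in larvae (log2 fold change 0.14, interval -0.16 to 0.44). PKHD1L1, at 0.55 in embryos, was at 0.04 (-0.14 to 0.22). Of the genes lower in embryos, ponzr4 was at 0.45 in larvae, ponzr3 at 0.15, the globin gene hbae1.2 at 0.11, the stress-induced mTOR inhibitor gene DDIT4 at 0.08 and fkbp15a at -0.14. All of these groups overlapped in larvae except for ponzr4, at 0.97, 0.91 and 0.91 against 0.67, 0.74 and 0.64 CPM. The embryonic globin gene hbbe3 had too few reads in larvae for a test.

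Of the genes over a mean log2 CPM of 1 and not named after a clone, the 10 higher and 10 lower with the smallest p at 0.3 nM in larvae differed from DMSO by less than 2-fold, and by edgeR's adjustment over all genes their adjusted p lay between 0.477 and 0.995. They were picked by that p, so the values are a description. Among the higher ones was THBS1, a matrix protein of wound and vessel walls, at 27.3, 24.3 and 26.6 against 21.5, 18.9 and 19.9 CPM (log2 fold change 0.38, interval 0.20 to 0.55). ACTC1, the actin of heart and embryonic muscle, was at 56.0, 58.9 and 55.5 against 43.1, 46.2 and 33.7 CPM (0.47, interval 0.25 to 0.69). SIX6, an eye field transcription factor, was at 16.3, 16.9 and 16.3 against 12.4, 11.2 and 13.5 CPM (0.42, interval 0.19 to 0.64). None of these sets of libraries overlapped, and the controls of ACTC1 were spread more widely than its exposed libraries.

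The drug efflux pump gene abcg2a, whose mammalian form carries many xenobiotics, was at 132.3, 153.6 and 125.9 against 114.6, 94.3 and 102.3 CPM (0.40, interval 0.19 to 0.62). The clock repressor gene PER1 was at 80.4, 75.1 and 72.3 against 64.1, 54.0 and 64.6 CPM (0.32, interval 0.14 to 0.50). No exposed library of either gene overlapped the controls, and the log2 fold changes at 1.2 nM, against the same DMSO libraries, were 0.25 and 0.28. The other higher genes were lonrf1 (0.27), itih3a.1 (0.33), which encodes a chain of a plasma protease inhibitor, the kinase gene pim2 (0.42), and the non-coding RNAs SNORA62 (ENSDARG00000084991, 0.56) and Metazoa_SRP (ENSDARG00000088254, 0.52). Genes of the last 2 symbols have many near copies, and their counts are uncertain.

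Among the lower genes, arhgap23b, for a GTPase-activating protein, was at 9.88, 9.47 and 9.95 against 13.5, 13.6 and 14.1 CPM (log2 fold change -0.49, interval -0.69 to -0.29, edgeR adjusted p = 0.477). ADISSP was at 37.5, 38.4 and 33.5 CPM against a DMSO mean of 47.8 (SD 0.888, n = 3) (-0.39), and ELMOD2, for a GTPase-activating protein of small membrane GTPases, at 30.9, 28.8 and 26.3 against 37.5, 39.2 and 37.6 CPM (-0.41). The innate immune receptor-type gene nlrc11 had the largest estimate of the 10, with 4.59, 4.61 and 2.80 CPM at 0.3 nM, 7.77, 7.51 and 6.83 in DMSO and 6.70, 7.53 and 9.34 at 1.2 nM (-0.89, interval -1.28 to -0.50, edgeR adjusted p = 0.478). Only the 0.3 nM libraries of nlrc11 were low, and its difference between doses was 0.99 (edgeR adjusted p = 0.16). DESeq2 called that difference (adjusted p = 0.00646). The gene was picked for its low 0.3 nM libraries, which the comparison of doses shares, so a difference on this side was favoured. nlrc11 belongs to a large family of like sequences, so its counts are uncertain. The others were ECRG4 (-0.61), a secreted peptide precursor gene, rbms2a (-0.40), lrp11 (-0.35), STARD13 (-0.29), rnf44 (-0.29) and SLC25A42 (-0.27), the mitochondrial carrier of coenzyme A.

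**Figure D4:**
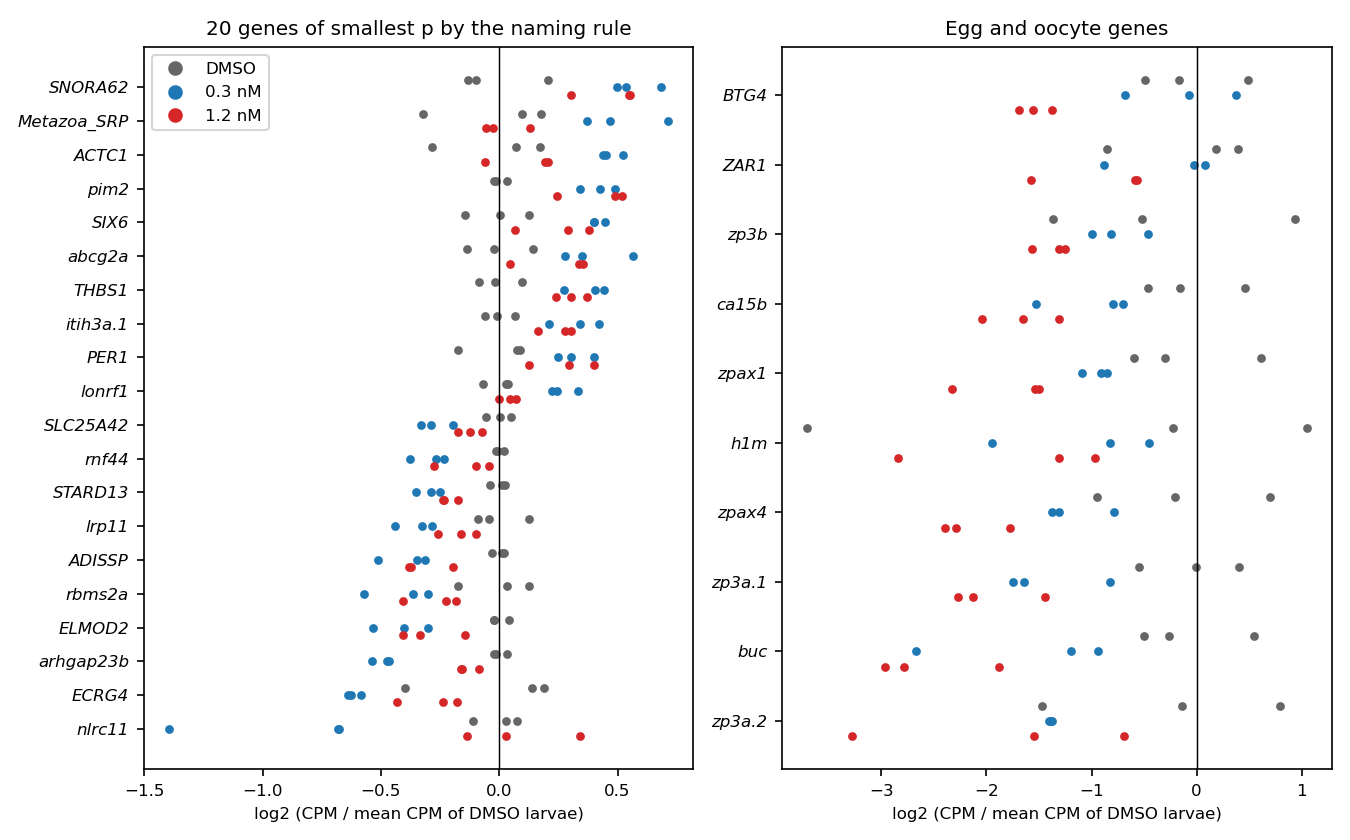
Left, the 20 named genes of smallest p, and right, 10 egg and oocyte genes; each point is a larva library, as log2 of its CPM over the mean of the DMSO larvae. On the left the blue and grey points of a gene do not overlap; nlrc11 has low points at 0.3 nM and not at 1.2 nM. On the right the 3 grey points of a gene spread widely.

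No member of any of the 30 gene lists was called in larvae at 0.3 nM, and list medians ran from -0.06 to 0.17 against 0.00 for all genes. Summed CPM did not overlap for 5 of the 30 lists, with 5 higher at 0.3 nM and 0 lower. Ribosomal protein genes had the narrowest range of the lists. Of its 82 genes, 80 lay above 0 (97.6%, against 50% of all genes), 27 had exposed libraries all above the controls, where 5.45% of all genes did, and the median was 0.14. RPS28 was at 418.5, 424.6 and 365.5 against 355.3, 340.5 and 342.9 CPM (log2 fold change 0.22, interval 0.07 to 0.37). RPL31 (0.19) and RPS25 (0.20) were next in order of p. Summed over the list, exposed replicates 1 and 2 had 56390 and 56700 CPM and replicate 3 had 51530, against 51560, 50010 and 48370 in the controls. Replicate 3 thus lay among the controls in the sum, and it was the lowest exposed library in 80 of the 82 genes. Medians were 0.10 at 1.2 nM and -0.09 in embryos.

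**Figure D5:**
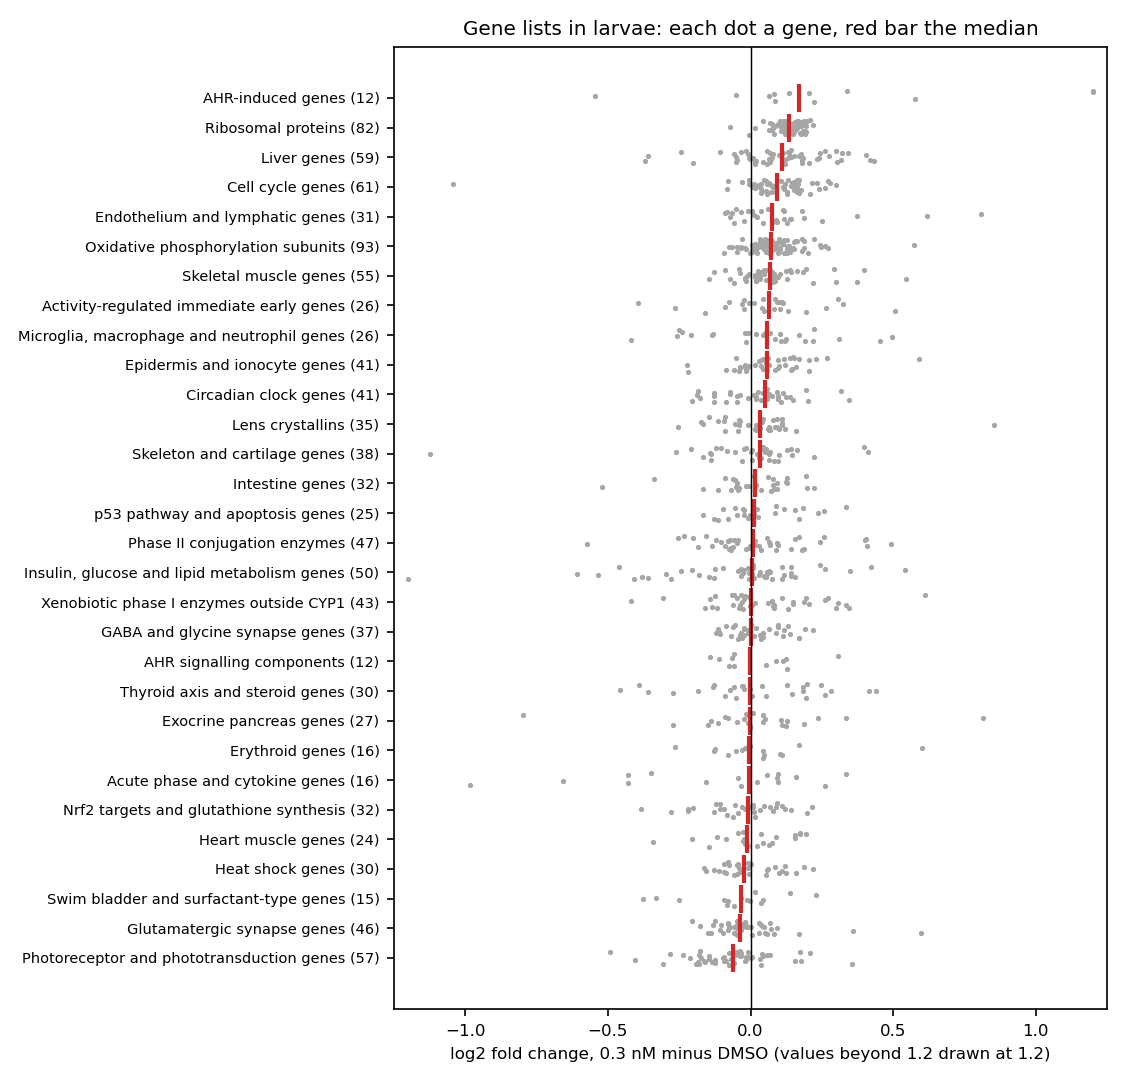
Log2 fold change of 0.3 nM against DMSO larvae for the members tested of each of 30 gene lists, with the number tested in brackets and the median as a red bar. Medians lie between -0.06 and 0.17, and the ribosomal protein genes form the tightest cloud, from -0.07 to 0.22.

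Oxidative phosphorylation subunits, proteins of mitochondrial respiration, had 82 of 93 listed genes above 0 (88.2%) and a median of 0.07. Of the 93, 18 were higher without overlap, where 5.45% of all genes were. The list does not hold mt-atp8, the mitochondrial ATP synthase gene described above, which was lower without overlap (log2 fold change -0.56). NDUFB8, of complex I, was at 94.7, 94.8 and 91.9 against 80.1, 86.4 and 78.0 CPM (log2 fold change 0.20, interval 0.06 to 0.35), and ATP5PD, of the ATP synthase, at 177.3, 174.3 and 165.1 against 151.8, 148.9 and 153 CPM (0.19). The sums, 10230, 10280 and 10300 against 9779, 10010 and 9496 CPM, did not overlap. The median was 0.00 at 1.2 nM.

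Skeletal muscle genes had 43 of 55 above 0 (78.2%), 13 without overlap and higher (5.45% of all genes were), and a median of 0.07. ACTA1, the main actin of muscle fibres, was at 1356, 1483 and 1471 against 1258, 1272 and 1231 CPM (0.20, interval 0.07 to 0.32). MYOG, a factor of muscle differentiation, stood at 17.5, 19.1 and 15.5 against 13.9, 13.1 and 15.3 CPM (0.30), and the creatine kinase gene ckma at 0.18. The sums of 64310, 63250 and 62360 CPM were all above the controls at 60050, 59580 and 60540. The library totals of the groups do not overlap either. After thinning all libraries to the lowest total the medians were 0.13 for ribosomal proteins, 0.07 for oxidative phosphorylation and 0.07 for skeletal muscle. Thinning at random keeps the expected share of each gene, so it could hardly move these medians. The part of depth in them was not tested.

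Liver genes had 45 of 59 above 0 (76.3%) and a median of 0.11. Without overlap, 12 were higher and 1 lower, where 5.45% and 5.51% of all genes were. The liver fatty acid carrier gene fabp10a was at 314.4, 341.9 and 266.0 against 264.7, 257.6 and 227.5 CPM (0.30, interval 0.09 to 0.51), and serpina1, for a plasma protease inhibitor, at 106.2, 124.6 and 109.6 against 98.0, 98.5 and 92.6 CPM (0.23, interval 0.08 to 0.38). The highest control of fabp10a was just under the lowest exposed library. APOBEC2 went the other way, at 9.12, 9.67 and 11.4 against 12.0, 13.5 and 13.3 CPM (-0.36). It is on the list, but whether it marks liver was not checked. The list's summed CPM overlapped, at 18190, 18740 and 18690 against 18070, 18640 and 16900.

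Cell cycle genes had 55 of 61 above 0 (90.2%) and a median of 0.09, with 8 that were higher without overlap (5.45% of all genes were). The list's summed CPM overlapped, at 1833, 1811 and 2124 against 1862, 1932 and 1693. The replication helicase gene MCM7 was at 53.1, 49.8 and 53 against 49.3, 45.8 and 42.9 CPM (0.18), and the mitotic cyclin gene ccnb3 at 9.07, 10.1 and 8.98 against 8.51, 6.55 and 7.70 CPM (0.30). This median rested in part on 2 libraries: it was 0.02 without exposed replicate 3 and 0.06 without DMSO replicate 3. Photoreceptor genes had 44 of 57 below 0, a median of -0.06, and 4 that were lower without overlap, a share near the 5.51% of all genes. The cone arrestin gene ARR3 was at 139.4, 178.6 and 185.1 against 197.7, 192.5 and 222.0 CPM (-0.28), and recoverin, RCVRN, at 288.6, 347.7 and 344.3 against 380.6, 354.1 and 385.2 CPM (-0.19). Exposed replicate 1 was the lowest in both, and without it the list's median was -0.02, while it was -0.11 without DMSO replicate 1 and -0.10 without exposed replicate 2.

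The lists of detoxification outside the CYP1 family were centred on 0. Phase I enzymes had 22 of 43 genes above 0 and a median of 0.00, and phase II conjugation enzymes 24 of 47 and 0.01. In the second of these, sult6b1, a sulfotransferase gene, was at 131.8, 142.5 and 102.1 against 97.7, 86.3 and 100.7 CPM (0.40, interval 0.09 to 0.72). Its lowest exposed library was close to the highest control. Targets of Nrf2, the regulator of the oxidative stress response, had 16 of 32 above 0 and a median of -0.01. The glutathione synthesis gene GCLM was lower without overlap, at 11, 10.1 and 10.4 against 13.3, 14.1 and 13.8 CPM (-0.38, interval -0.65 to -0.12), and the iron storage gene FTH1 higher, at 0.20.

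The organs known as targets of dioxin-like compounds showed no call. Heart muscle genes had 11 of 24 above 0 with a median of -0.01, skeleton and cartilage genes 24 of 38 with 0.03, swim bladder genes 5 of 15 with -0.035 and erythroid genes 7 of 16 with 0.00. HAPLN1, a cartilage link protein gene, was at 0.38, 1.04 and 1.02 against 1.41, 1.91 and 1.99 CPM (-1.12, interval -1.89 to -0.36). All exposed libraries were lower, at 7 to 19 reads against 21 to 26. The lymphatic endothelium gene lyve1a was at 2.59, 2.14 and 2.74 against 1.68, 1.55 and 1.67 CPM (0.62, interval 0.15 to 1.09), and at -0.18 for 1.2 nM. Endothelial genes as a list had 22 of 31 above 0 and a median of 0.08. Clock genes had 27 of 41 above 0 (median 0.05), with RORA lower at 88, 100 and 93.5 against 105.1, 108.7 and 105.7 CPM (-0.18).

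Genes of glucose and fat metabolism had 26 of 50 above 0 and a median of 0.01. Without overlap, 3 of them were higher and 5 lower, where 5.45% and 5.51% of all genes were. The carnitine palmitoyltransferase gene cpt1ab, which admits fatty acids to mitochondria, was lower without overlap at 91.2, 87.1 and 95.9 against 111.9, 105.6 and 107.1 CPM (-0.24), and so was the insulin gene ins at 7.72, 7.98 and 7.96 against 9.51, 10.6 and 8.89 CPM (-0.30).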

How the data were processed

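RNA was measured in whole larvae and embryos by sequencing. The values deposited by the authors are read counts for each Ensembl gene, not normalized, made with FastQC, STAR on GRCz10 and HTSeq, per the submitters' processing notes, which also name edgeR; their versions are not stated there. The names table matched 26269 of 32105 genes. The genome annotation of that build was not used here, so gene positions and sequences are not printed.

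The robust quasi-likelihood test of edgeR 4.0.16 (R 4.3.3) was applied to the counts (genes kept by filterByExpr, TMM scaling, Benjamini-Hochberg adjustment over all genes tested, called under 0.05). The 9 larva libraries shared 1 fit, the 6 embryo libraries another, and the difference between ages used all 24, adult brain included. CPM use the TMM-adjusted library size, except in the check of the labelled age, where they use the plain library total. Intervals of 95% use each fit's degrees of freedom, and an SE is the size of the log2 fold change over the square root of F. DESeq2 1.42.0, RLE factors, other filters, equal depth, a replicate block and left-out libraries were alternatives. No 2 libraries of a larva group compared here agreed within counting noise (lowest chi-square per degree of freedom 2.50).

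Embryo libraries of the same number deviated together (r from 0.288 to 0.396), so values with a block on the number are given too. The labels do not say that the number marks pairs. That reading comes from these same data, and the blocked calls rest on it.

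Some genes that the rule below names are not reported here. Members, lists and the rule for named genes were chosen with earlier results of these data known. The rule takes all AHR genes of the lists and up to 3 genes per described list by p. It takes the 10 genes of smallest p that were higher and the 10 lower, above a mean log2 CPM of 1 and not named after a clone. Of the genes called in embryos and not named after clones, it takes up to 6 of each direction by size of change. Genes called at 1.2 nM, up to 6 per dose or age difference, and those an alternative calls are taken too. Of the 30 lists, those not described had no called member and a median between -0.06 and 0.17. zp3a.1 and the other egg genes were added after their values were seen.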

Additional observations from a re-analysis of the deposited data

How the results depend on the processing

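The count of genes called between 0.3 nM and DMSO larvae, 0, stayed 0 with RLE size factors, without the filter on low counts and with libraries thinned to the lowest total. It was 2 with DESeq2, 1 without robust fitting and 1 in a fit of the 6 libraries alone, and 0 to 2 when 1 library was left out, the 2 without DMSO replicate 3, zgc:158463 among them. Same-numbered DMSO and 0.3 nM larvae did not deviate together (correlations 0.0142, -0.0935 and -0.1399), and with the replicate block the count was 0. In embryos the block changed the count from 2 to 27, and the replicate block within age left the difference between ages at 0. The comparison of doses gave 5 genes, 12 with DESeq2, 1 with its 6 libraries alone, 4 with the replicate block, which lost cyp1c2 and ftr69 (same-numbered 0.3 and 1.2 nM larvae correlated at 0.0742, 0.2689 and 0.2181, not all over 0.1, so the numbers were not taken as pairs), and 1 to 9 when 1 library was left out. The difference between ages gave 0 to 1, the 1 being si:dkey-9l20.3 without embryo 0.3 nM replicate 3. Genes with an interval inside 2-fold numbered 19536 to 20266 over the edgeR settings, and the CYP1A1 difference ran from 42.46 to 90 CPM over the left-out libraries. Of 1305 values for the named genes under other settings, 1278 had the same direction. Settings that keep all libraries of the 2 groups could hardly change a direction, and many of the genes were picked by their p in these data. At equal depth gstp1.1 turned to -0.021 and xirp1 to 0.015. With 1 library left out the lowest and highest log2 fold changes included both signs for NQO1 (-0.095 to 0.019), FOXQ1 (-0.010 to 0.50), cyp1c2 (-0.001 to 0.232), gstp1.1 (-0.016 to 0.116), hsp90aa1.1 (-0.195 to 0.031), PTGES3 (ENSDARG00000037284, -0.115 to 0.031, and ENSDARG00000089626, -0.219 to 0.113), xpo1a (-0.012 to 0.132), PKHD1L1 (-0.020 to 0.108), ponzr3 (-0.193 to 0.368), hbae1.2 (-0.183 to 0.342), DDIT4 (-0.088 to 0.209), xirp1 (-0.135 to 0.142), ZAR1 (-0.48 to 0.038), BTG4 (-0.252 to 0.287), zp3b (-1.153 to 0.162) and h1m (-1.511 to 0.109). The cause of these shifts was not tested. Medians of the 8 lists examined this way, a check added after the data had been seen, had the same sign in every setting. Depth limits the low genes: under a mean log2 CPM of 0 the median half-width of the interval was 0.867.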

Other observations

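Some genes outside the lists had wide spreads among the DMSO larvae. The largest estimate at 0.3 nM belonged to zgc:158463, at 26.5, 35.8 and 21.3 CPM against 245.1, 317.8 and 1542 in DMSO and 29.9, 36.9 and 36.4 at 1.2 nM. All DMSO libraries were high, and replicate 3 the highest by far; the log2 fold change was -4.66 (interval -6.71 to -2.61, edgeR quasi-likelihood adjusted p = 0.833). The RefSeq table of the assembly GRCz12tu lists a gene of this symbol as ribosomal RNA, the class of RNA that the library preparation removes; the part of that removal in the difference was not tested. The gene 5_8S_rRNA (ENSDARG00000081218) was at 7.94, 6.88 and 14.7 against 21.5, 18.4 and 4.45 CPM, with overlap. zgc:158463 was called by DESeq2 (adjusted p = 5.78e-06), by edgeR without robust fitting (0.0286) and without DMSO replicate 3 (0.0200, log2 fold change -3.34).

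ENSDARG00000081115, which has no symbol in the names table, was at 96.1, 117.0 and 117.0 CPM against 76.9, 65.1 and 53.8 (log2 fold change 0.75, interval 0.45 to 1.06, edgeR adjusted p = 0.507), without overlap, and was called by DESeq2 (adjusted p = 8.58e-05). A second Metazoa_SRP gene (ENSDARG00000099163) was at 13.1, 16.9 and 11 against 5.83, 5.45 and 6.59 CPM and at 1.56, 0.37 and 9.73 for 1.2 nM, and was called in a fit of the 6 libraries alone (adjusted p = 0.0341). These genes were chosen after their values were seen.

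Transcripts of eggs and oocytes were found at low levels in DMSO larvae and at lower ones in exposed larvae. The list was put together after values had been seen and is a description. Its 10 genes summed to 26.6, 13.3 and 10.5 CPM in DMSO, 10.3, 7.40 and 8.01 at 0.3 nM and 5.45, 4.88 and 5.10 at 1.2 nM. The egg coat gene zp3a.1 was at 0.92, 0.52 and 0.48 against 2.14, 1.62 and 1.11 CPM (log2 fold change -1.34, interval -2.07 to -0.60). The germ plasm organizer gene buc was at 0.54, 0.19 and 0.65 against 1.81, 1.03 and 0.87 CPM (-1.39), and the egg coat gene zpax1 at 2.16, 2.08 and 1.83 against 5.96, 2.58 and 3.18 (-0.97). In these and in ca15b, 4 of the 10, all exposed libraries were below the controls, where 5.51% of all genes were lower without overlap. Groups overlapped for zp3a.2, zp3b, zpax4, h1m, ZAR1 and BTG4. DMSO replicate 1 was the highest of the 9 larva libraries for all 10 genes, and the list's median log2 fold change moved from -0.99 to -0.55 without it. A second added list, germ line genes of the piRNA pathway, had 4 of 8 tested genes above 0 and a median of -0.04. Its sums overlapped, at 12.4 to 14.5 CPM for 0.3 nM and 11.4 to 14.4 in DMSO.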
